A study of Mus musculus with 28 samples.

Results

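The genes described here are 10 regulators of spermatogonial stem cells: Gfra1, Ret, Zbtb16, Id4, Etv5, Nanos2, Lin28a, Sall4, Foxo1 and Bcl6b. Every peak of histone H3 lysine acetylation (H3K27ac, a mark of active promoters and enhancers) that carried 1 of these symbols, and no other, as its gene name was taken as a peak of that gene. This gave 282 of the 471458 H3K27ac peaks in 12 libraries. A peak within 1 kb of a start listed under the symbol alone was taken as a promoter peak, and 83 of the 282 were promoter peaks. Peaks carried the names of 8 of the 10 genes, and the same 8 genes had a promoter peak in at least 1 library.

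The stem cell pool of the testis is kept by signals from the somatic niche. GDNF binds the co-receptor GFRA1, which acts through the receptor tyrosine kinase RET, and this signal raises transcription factors such as ETV5, BCL6B and ID4 in spermatogonia. ZBTB16 (also called PLZF), SALL4 and FOXO1 are transcription factors needed to maintain the undifferentiated state, and NANOS2 and LIN28A are RNA-binding proteins of undifferentiated spermatogonia.

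All cells came from testes of C57BL/6 mice and were obtained by magnetic sorting or by sedimentation. At postnatal day 7, Thy1+ spermatogonia (a fraction enriched for undifferentiated cells) and c-Kit+ spermatogonia (differentiating cells) were taken from wild type (WT) mice and from mice with a knockout of Scml2 (KO), a germline gene related to Polycomb proteins. Pachytene spermatocytes (PS) and round spermatids (RS) carried the same Scml2 knockout and came from adults, and H3K27ac in WT PS and WT RS was not analysed here. Each of these 6 groups had 2 H3K27ac libraries, and 16 input libraries of chromatin without immunoprecipitation covered 8 groups. The labels do not say whether the replicates came from separate animals, so p-values measure the spread between these libraries, which may be technical. Each table listed called peaks with a summit height and a fold enrichment, which equals the height plus 1 over the library's background height plus 1. Because of the added 1, the fold enrichment of a given peak also depends on the depth of its library. Fold enrichment is the level used throughout.

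The 8 spermatogonial libraries held between 17877 and 36362 peaks and the 4 PS and RS libraries between 63322 and 73316, so an uncalled promoter in spermatogonia was judged against fewer peaks. Read depth is not given. The background height, a relative guide to depth, ranged from 0.564 to 1.11 in spermatogonia and from 0.849 to 1.62 in PS and RS, and the lowest fold enrichment of any called peak ranged from 3.05 to 3.84. Replicate 1 had more peaks and a higher background height than replicate 2 in all 6 H3K27ac groups. The gap in peak number was widest in Thy1+ KO (34681 against 21286), c-Kit+ KO (36362 against 22949) and c-Kit+ WT (29794 against 19638). A promoter peak at Scml2 was called in 4 of the 8 KO libraries and in 0 of the 4 WT libraries, which are all spermatogonial. The KO calls were in both PS KO libraries and in replicate 1 of Thy1+ KO and of c-Kit+ KO, the replicates with more peaks. H3K27ac there does not test for the deletion. Promoters of 4 germ line markers (Ddx4, Dazl, Tex14, Mael) were called at 2 to 4 genes in each spermatogonial library and at all 4 genes in each PS and RS library. The promoters of 6 spermatocyte markers were all called in each PS and RS library, and 1 to 4 of them in each spermatogonial library. Of 5 round spermatid markers with a listed start, 2 to 3 were called in PS and RS alike and 0 to 1 in spermatogonia. Markers of differentiating spermatogonia were called at 1 to 3 of 6 genes in c-Kit+ libraries, 0 to 2 in Thy1+ libraries and 3 to 6 in PS and RS, and endothelial markers at 1 to 2 of 4 genes in every H3K27ac library. Of 4 T cell markers, 1 had a listed start, and its promoter was called in no H3K27ac library.

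RefSeq promoter sequences (GRCm38.p6, the same assembly as mm10) were matched for 6 of the 10 genes, and the 250 bases before the start are shown for 4 of them. Etv5 and Foxo1 are shown because their promoters were called in all 12 libraries, Id4 because its start was covered mainly in PS and RS, and Nanos2 because no peak lay at the gene. Each is written 5′ to 3′ along the gene's strand, with CG dinucleotides in capitals. The windows are chr16:22439571-22439820 (− strand) for Etv5, chr3:52268087-52268336 (+ strand) for Foxo1, chr13:48260866-48261115 (+ strand) for Id4 and chr7:18987274-18987523 (+ strand) for Nanos2.
Etv5: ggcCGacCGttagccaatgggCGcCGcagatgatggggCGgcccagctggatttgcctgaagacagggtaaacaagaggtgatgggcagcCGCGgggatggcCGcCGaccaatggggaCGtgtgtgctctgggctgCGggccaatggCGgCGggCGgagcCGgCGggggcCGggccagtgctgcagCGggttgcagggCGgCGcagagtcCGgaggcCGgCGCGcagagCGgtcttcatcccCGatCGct
Foxo1: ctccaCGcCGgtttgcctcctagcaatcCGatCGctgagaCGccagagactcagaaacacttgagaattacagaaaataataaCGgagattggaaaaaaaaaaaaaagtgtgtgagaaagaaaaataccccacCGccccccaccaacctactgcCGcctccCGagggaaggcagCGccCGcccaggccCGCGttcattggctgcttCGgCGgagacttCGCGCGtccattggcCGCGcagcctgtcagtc
Id4: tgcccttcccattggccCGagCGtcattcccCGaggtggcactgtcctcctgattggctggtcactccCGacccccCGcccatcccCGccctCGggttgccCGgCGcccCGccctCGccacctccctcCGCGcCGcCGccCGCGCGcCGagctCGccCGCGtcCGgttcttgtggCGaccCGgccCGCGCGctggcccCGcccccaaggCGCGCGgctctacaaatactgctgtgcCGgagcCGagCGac
Nanos2: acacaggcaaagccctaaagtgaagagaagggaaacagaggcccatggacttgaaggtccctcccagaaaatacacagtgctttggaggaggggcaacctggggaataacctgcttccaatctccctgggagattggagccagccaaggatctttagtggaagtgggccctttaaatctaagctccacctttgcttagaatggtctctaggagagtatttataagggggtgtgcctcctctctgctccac
The Id4 window held 35 CG dinucleotides, the Etv5 window 27 and the Foxo1 window 20, above 97.0%, 91.4% and 82.1% of the 32851 RefSeq promoters measured the same way. The Nanos2 window held 0, against a median of 6 over all promoters. The letters GGGCGG (a GC box, searched on both strands) occurred 5 times in the Id4 window, 3 times in the Etv5 window, 2 times in the Foxo1 window and 0 times in the Nanos2 window, and 32.7% of all promoters hold at least 1 match. The motif TATAAA of core promoters, searched on both strands, matched 1 time in Nanos2 and in none of the other 3 windows, and 12.4% of all promoters hold a match. A peak of any name overlapped the Etv5 window in all 12 libraries, the Foxo1 window in 11, the Id4 window in 3 (all of them PS or RS) and the Nanos2 window in 0. The matched genes not shown, Gfra1 and Lin28a, held 10 and 7 CG dinucleotides, above 62.2% and 53.7% of promoters. A peak overlapped their windows in 0 libraries. These matches describe letters in short windows, and 6 genes give no test of a relation between sequence and acetylation.

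A start was listed only for a gene that some peak line named alone. Ret and Nanos2 had no such line, so 8 of the 10 genes had a listed start. As no peak of any name lay over their RefSeq extents, Ret and Nanos2 count as uncalled. The number of stem cell genes with a promoter peak was 3 and 3 in the Thy1+ WT libraries, 2 and 2 in c-Kit+ WT, 8 and 2 in Thy1+ KO, and 5 and 2 in c-Kit+ KO. It was 6 and 6 in PS KO and 7 and 5 in RS KO. Thus 7 of the 8 spermatogonial libraries had 2 to 5 of these promoters, and Thy1+ KO replicate 1, with 8, was above every other library. Of 17923 genes with a start listed alone, 44.7% to 56.1% had a promoter peak in a spermatogonial library and 60.3% to 63.5% in a PS or RS library. Genes that no peak line named alone are not among the 17923, so these are not shares of all genes. When the same number of strongest peaks (17877) was kept in every library, the counts were 2 to 5 in spermatogonia and 4 to 5 in PS and RS. In the 16 inputs, 0 of the 10 promoters were called.

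**Figure D1:**
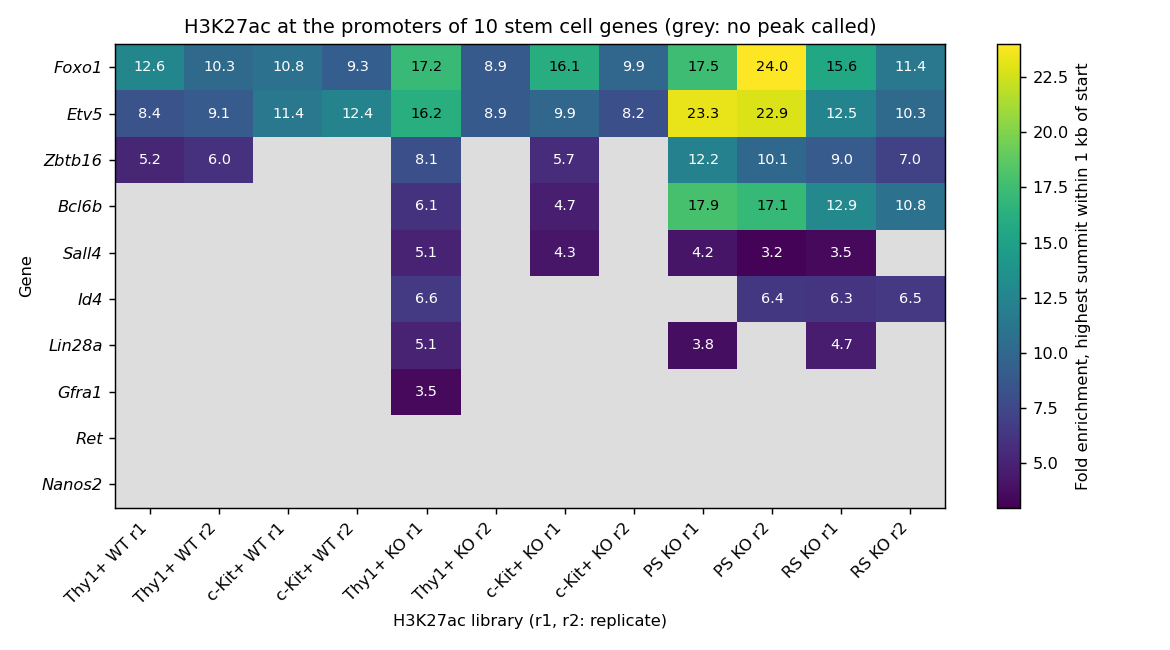
Fold enrichment of the highest summit within 1 kb of the start on lines naming the gene alone, for each gene (rows) in each H3K27ac library (columns). Grey marks that no such peak was called. Lines naming Id4 with A330033J07Rik are not drawn, so Id4 is grey in PS KO replicate 1 although such a line covers its start. Foxo1 and Etv5 are filled in all 12 libraries, and Thy1+ KO replicate 1 is the spermatogonial column with the most values, 8.

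Among the receptors, Gfra1, the GDNF co-receptor, was rarely called at its start. Its promoter was called in 1 library, Thy1+ KO replicate 1, at a fold enrichment of 3.54, the lowest of any peak called there. Ret, the signalling receptor, had 0 peaks under its own name, and no peak of any name lay over its RefSeq extent in any H3K27ac library. The clearest signal at Gfra1 lay deep in an intron, 194 kb from the start, at chr19:58259934-58261197. There the fold enrichment was 10.7 and 13.3 in the PS KO libraries, 5.08 and 4.33 in RS KO, and no peak was called in any of the 8 spermatogonial libraries. An intron region 95.7 kb inside Gfra1 had values of 7.04 and 5.41 in RS KO and 4.58 in 1 PS KO library. A region 223 kb from the start, past the end of the gene, had 8.21 and 5.41 in RS KO and 4.19 in 1 PS KO library. Gfra1 peaks in spermatogonia numbered 2 in all, that promoter peak and an intron peak of 4.22 in Thy1+ WT replicate 2.

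Etv5, an ETS factor induced by GDNF, was called at its promoter in all 12 libraries. Its fold enrichment was 8.38 and 9.05 in Thy1+ WT, 11.4 and 12.4 in c-Kit+ WT, 16.2 and 8.95 in Thy1+ KO, and 9.93 and 8.16 in c-Kit+ KO. It was 23.3 and 22.9 in PS KO and 12.5 and 10.3 in RS KO. Both PS KO libraries lay above all 10 others. Among spermatogonia, both c-Kit+ WT values lay above both Thy1+ WT values, while the KO groups overlapped. Within its own library, the Etv5 promoter stood above 40.2% to 83.1% of called promoters in spermatogonia, above 78.7% and 71.6% in PS KO and above 47.6% and 43.8% in RS KO.

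Bcl6b, a GDNF-induced transcriptional repressor, was called mainly in the late stages. Its promoter was called in none of the 4 WT libraries, in replicate 1 of Thy1+ KO (6.08) and of c-Kit+ KO (4.73), and in all 4 PS and RS libraries. The values were 17.9 and 17.1 in PS KO and 12.9 and 10.8 in RS KO. Every PS and RS value was above both spermatogonial values. Lines that named Bcl6b beside Mir195, Mir497 and Slc16a13 were present upstream of it in 7 libraries, 6 of them spermatogonial, at 4.34 to 9.11, and those peaks were not counted for Bcl6b.

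Id4, an inhibitor of helix-loop-helix factors that marks stem cells, had its peaks split between lines. Peaks named for Id4 alone formed a region centred at -0.831 kb from the listed start and were called at 6.58 in Thy1+ KO replicate 1, 6.4 in PS KO replicate 2, and 6.26 and 6.49 in RS KO. The start itself was covered by lines that named both Id4 and its neighbour A330033J07Rik, with highest values of 13.7 and 19.7 in PS KO and 8.21 and 7.57 in RS KO. Those lines reached 5.57 and 3.84 in Thy1+ KO and 3.78 in c-Kit+ KO replicate 1, and no such line was present in the 4 WT libraries. Which of both genes the acetylation belongs to cannot be told apart.

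Foxo1, a forkhead factor needed for stem cell maintenance, was called at its promoter in all 12 libraries. The values were 12.6 and 10.3 in Thy1+ WT, 10.8 and 9.3 in c-Kit+ WT, 17.2 and 8.95 in Thy1+ KO, 16.1 and 9.91 in c-Kit+ KO, 17.5 and 24 in PS KO, and 15.6 and 11.4 in RS KO. In fold enrichment the PS KO values lay above all others, the lower of them just above the 17.2 of Thy1+ KO replicate 1. The ranges of the spermatogonial groups overlapped. Relative to other promoters, PS KO was not highest. Within its own library, the Foxo1 promoter stood above 44.7% to 86.5% of called promoters in spermatogonia. It stood above 60.0% and 74.3% in PS KO and above 60.7% and 49.6% in RS KO. Etv5 and Foxo1 were the 2 of the 10 genes called at the promoter in all 12 libraries. Among the 13603 genes with a promoter peak in any library, 48.7% were called in all 12 and 50.5% in all 8 spermatogonial libraries, where Etv5 and Foxo1 were again the 2 called. Ret and Nanos2 are not among the 13603, so such shares compare with 8 of the 10 genes. Foxo1 also had upstream regions, centred from -139 to -1.67 kb from the start. The region at -72.1 kb was called in 7 libraries, namely 1 in each of the 4 spermatogonial groups, PS KO replicate 1 and both RS KO libraries, at 3.62 to 7.24.

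Zbtb16, a zinc finger repressor of undifferentiated spermatogonia, differed between the WT stages in whether its promoter was called. It was called at 5.24 and 6.03 in Thy1+ WT and in neither c-Kit+ WT library. These values stood above 9.57% and 24.2% of called promoters in their libraries. With stricter peaks (−log10 q of at least 5), Thy1+ WT replicate 1 held 0 Zbtb16 peaks. With uncalled regions at the library's lowest value, the log2 difference of c-Kit+ from Thy1+ cells of both genotypes was -0.27 (SE 0.199, limma adjusted p = 0.486). Zbtb16 was the 1 gene of the 10 called in both libraries of Thy1+ WT and neither of c-Kit+ WT, a pattern shared by 0.919% of the 13603 genes. In the knockout it was called in 1 of 2 libraries of each stage, at 8.1 in Thy1+ KO and 5.67 in c-Kit+ KO, so the pattern was not repeated there. In the knockout, 1.81% of the 13603 genes were called in both Thy1+ libraries and neither c-Kit+ library and 0.478% the other way round, with none of the 10 in either class, and 1.45% were called in c-Kit+ WT alone, again with none of the 10. The values were 12.2 and 10.1 in PS KO and 9.0 and 7.03 in RS KO. Zbtb16 and Bcl6b were the 2 genes of the 10 called in all 4 PS and RS libraries and in at most 4 spermatogonial ones, and 13.2% of the 13603 genes shared that pattern. None of the 10 was called in all 4 and in no spermatogonial library, against 7.09%. With Etv5 and Foxo1, 4 of the 8 genes with a listed start were called in all 4 PS and RS libraries, against 70.5% of the 13603. Id4 did not enter these counts, because its peak in PS KO replicate 1 also named A330033J07Rik. Lines naming both genes covered the Id4 start in all 4 PS and RS libraries.

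Sall4, a zinc finger factor of germline and embryonic stem cells, had weak promoter peaks in 5 libraries. They reached 5.06 in Thy1+ KO replicate 1, 4.26 in c-Kit+ KO replicate 1, 4.19 and 3.2 in PS KO and 3.52 in RS KO replicate 1. At most 6.43% of called promoters in the same library were weaker. An intron region 1.31 kb inside Sall4 added a value of 4.19 in Thy1+ WT replicate 1, the gene's 1 peak in WT.

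Of the RNA-binding proteins, Nanos2, which represses differentiation genes after transcription, had 0 peaks under its own name and none of any name over its RefSeq extent. A single peak on a line that named Nanos2 with Mypop was called in PS KO replicate 2, at 3.73. Lin28a, an RNA-binding protein that blocks let-7 maturation, had promoter values of 5.06 in Thy1+ KO replicate 1, 3.81 in PS KO replicate 1 and 4.69 in RS KO replicate 1, and none in WT. Its most repeated region lay at -17.2 kb from the start and was called in both PS KO libraries, at 5.72 and 3.73, and in both RS KO libraries, at 5.87 and 4.33.

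Peaks named after the stem cell genes were more numerous in PS and RS, as were peaks in all. The 10 genes held between 4 and 28 peaks per spermatogonial library and between 41 and 54 per PS or RS library, covering 3.55 to 14.0 kb and 21.4 to 33.4 kb. As a share of all peaks, the ranges overlapped, with 0.0204% to 0.0807% in spermatogonia and 0.064% to 0.0737% in PS and RS. With the same number of strongest peaks in every library, the mean per library was 8.0 in Thy1+ WT, 5.5 in c-Kit+ WT, 9.5 in Thy1+ KO, 5.5 in c-Kit+ KO, 9.0 in PS KO and 7.5 in RS KO, so the stages then overlapped. Merged over the 12 libraries, the peaks formed 92 regions. Of these, 60 were called in PS or RS and in no spermatogonial library, 11 in spermatogonia alone and 2 (the Etv5 and Foxo1 promoters) in all 12, while 46 were called in a single library. The same counts were not made over all genes, and PS and RS libraries held more peaks in all. The split of regions by stage is therefore not shown to be particular to the stem cell genes. Without Thy1+ KO replicate 1, an alternative chosen after seeing the data, the regions called in any spermatogonial library fell from 32 to 21. Introns held 42.9% of the 282 peaks, against 30.8% of all H3K27ac peaks, and promoters held 29.4% against 36.7%. Zbtb16 gave 75 of the 121 intron peaks, and over the 7 other genes with peaks introns held 25.6% and promoters 37.2%.

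**Figure D2:**
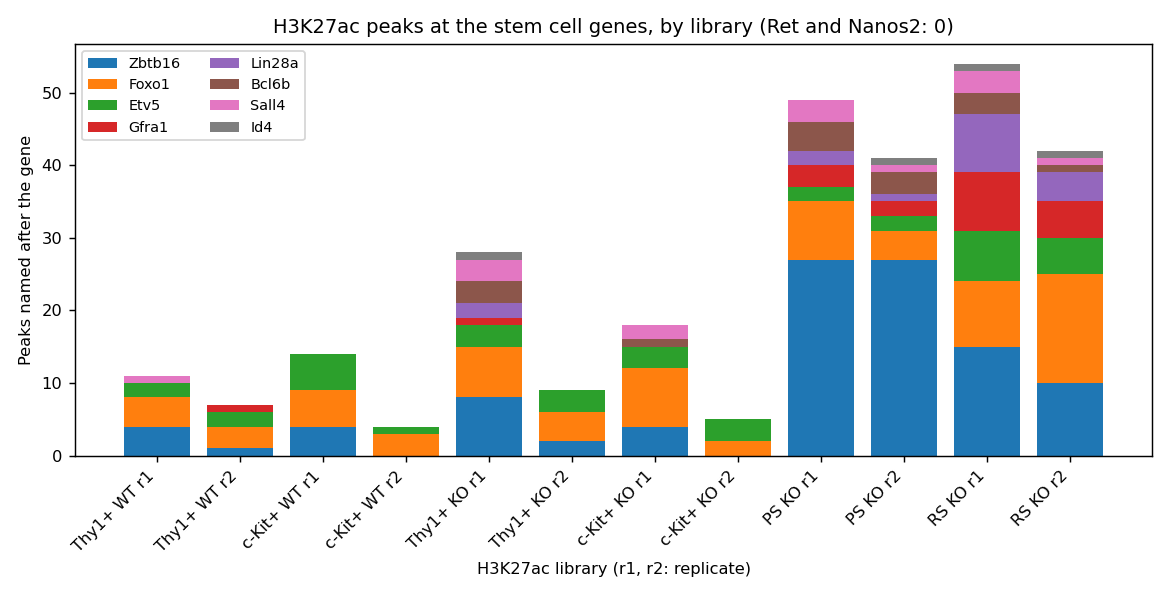
Number of H3K27ac peaks named after each gene (colours) in each library (columns), stacked. PS and RS columns reach 41 to 54 peaks and spermatogonial columns 4 to 28, with Zbtb16 giving 27 peaks in each PS KO library.

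Zbtb16 held the most peaks of the 10 genes in PS KO. It had 4 and 1 peaks in Thy1+ WT, 4 and 0 in c-Kit+ WT, 8 and 2 in Thy1+ KO, 4 and 0 in c-Kit+ KO, 27 and 27 in PS KO, and 15 and 10 in RS KO. In PS KO the peaks covered 14.8 and 14.4 kb, and 120 and 111 of the 15382 and 14936 genes with any peak had more. Of its 35 merged regions, 28 were called in PS or RS and in no spermatogonial library, 15 in both PS KO libraries and 6 in both RS KO libraries. These counts of regions were not made over all genes. With the same number of strongest peaks in every library, Zbtb16 kept 3 and 5 peaks in PS KO, 1 and 1 in RS KO, 2 and 1 in Thy1+ WT and 4 and 1 in Thy1+ KO. The larger number in PS KO thus lay mostly in weaker peaks, and the unequal peak totals were not separated from it.

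Some of the Zbtb16 intron regions were already acetylated in spermatogonia. The region 99.1 kb inside the gene (chr9:48735403-48738201) was called in c-Kit+ WT replicate 1 at 3.42, in Thy1+ KO at 10.1 and 5.12, and in c-Kit+ KO replicate 1 at 3.31. In PS KO it reached 10.7 and 12.3, and in RS KO 5.48 and 3.79. The region 112 kb inside the gene was called in 8 libraries, 4 of them spermatogonial, at 3.67 to 5.13 in those. Near the start, PS and RS differed in position: a region 19.7 kb inside the gene was called in both PS KO libraries (5.72 and 7.46) and neither RS KO library, and the region 18.6 kb inside in both RS KO libraries (6.26 and 4.87) and neither PS KO library.

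**Figure D3:**
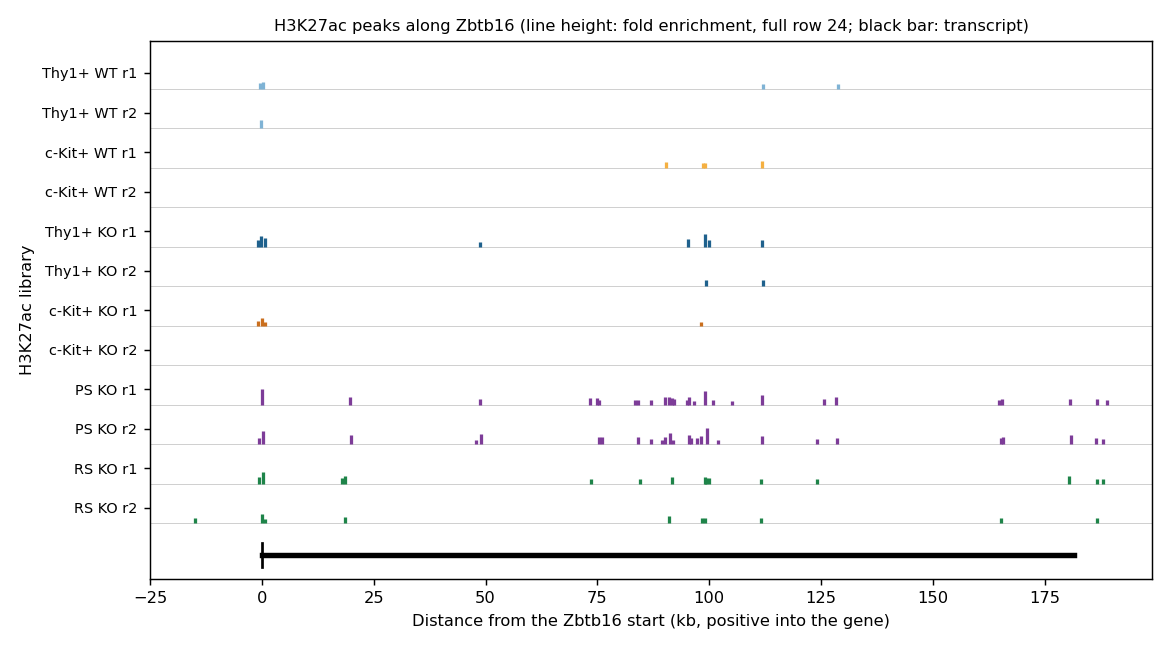
H3K27ac peaks along Zbtb16 by distance from its start (kb, horizontal axis) in each library (rows), where line height is the fold enrichment, a full row is 24, and the black bar is the transcript. The PS KO rows hold 27 peaks each, and the peaks near 99.1 kb appear in 8 of the 12 rows.

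The first test asked whether loss of Scml2 changed acetylation at these genes in spermatogonia. A region entered a test when it had a peak in every library compared, so 2 of the regions of these genes, the Etv5 and Foxo1 promoters, could be tested. Neither passed the test between KO and WT: the log2 change was -0.24 (SE 0.162) at Etv5 and -0.04 (SE 0.161) at Foxo1, with adjusted p-values from limma of 0.952 and 0.993. Of all 9585 regions tested, 0 (0%) passed an adjusted p of 0.05 in limma, and 502 had an unadjusted p under 0.05. The sign at both genes turned positive when the libraries were not centred on their median. Within either stage, none of the 10 promoters was called in both libraries of 1 genotype and in neither of the other. Of the 13603 genes, 1.78% were called in Thy1+ KO alone and 0.103% in Thy1+ WT alone, and 0.684% in c-Kit+ KO alone and 0.36% in c-Kit+ WT alone.

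The second test compared c-Kit+ with Thy1+ cells of both genotypes. The log2 difference was 0.29 (SE 0.162) at Etv5 and 0.19 (SE 0.161) at Foxo1, and the limma adjusted p-values were 0.437 and 0.634. Over all regions, 104 of 9585 (1.09%) passed, 77 of them (0.803% of regions) higher and 27 (0.282%) lower in c-Kit+ cells, so 74.0% were higher, against 63.4% with quantile normalization. Without centring 0 regions passed in limma, with 932 at an unadjusted p under 0.05. Whether the stage difference itself depended on genotype was tested as an interaction. The log2 interaction was -0.42 (SE 0.322) at Etv5 and 0.65 (SE 0.304) at Foxo1, with limma adjusted p-values of 0.998 for both, and 0 of 9585 regions (0%) passed in limma, with 453 at an unadjusted p under 0.05. Among the somatic markers, the promoter of Gata4, a Sertoli cell factor, was higher in c-Kit+ cells, at 7.73 ± 2.4 in Thy1+ WT, 11.9 ± 0.135 in c-Kit+ WT, 10.6 ± 1.45 in Thy1+ KO and 11.3 ± 2.02 in c-Kit+ KO (SD, n = 2 each; limma adjusted p = 0.0451), a call that was lost without centring.

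The third test compared PS KO with c-Kit+ KO, which differ in age as well as stage. The Etv5 promoter went from 9.05 ± 1.25 to 23.1 ± 0.237 and the Foxo1 promoter from 13 ± 4.36 to 20.8 ± 4.56 on the deposited scale (SD, n = 2 each), but without centring the median tested region was also 0.91 higher in log2 units in PS KO. Relative to the median region, the log2 change was 0.28 (SE 0.189) at Etv5 and -0.38 (SE 0.213) at Foxo1, and neither passed in limma (adjusted p = 0.281 and 0.2). Without centring, the log2 changes became 1.36 and 0.7, both past the threshold. Over all 12501 regions, 3992 (31.9%) passed, 6.83% higher and 25.1% lower. Of these calls, 21.4% were higher with centring, 49.2% with quantile normalization and 98.9% without centring. The call at both genes, and the sign at Foxo1, thus followed the scaling. None of the 10 promoters was called in both PS KO libraries and neither c-Kit+ KO library, against 13.5% of the 13603 genes, and none was called the other way round, against 1.29%. Among the 10, Bcl6b, Sall4 and Zbtb16 were also called in c-Kit+ KO replicate 1.

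The fourth test compared RS KO with PS KO and could reach 13 regions of 7 of the genes. Of these, 5 passed, 4 lower and 1 higher in RS KO, with the Id4 values taken from lines that also named A330033J07Rik. Over all 21329 regions, 4309 (20.2%) passed, 7.79% lower and 12.4% higher. The median log2 change was -0.37 over the 13 regions and -0.08 over all regions. Of the promoters, none of the 10 was called in both RS KO libraries and neither PS KO library, against 2.53% of the 13603 genes, or the other way round, against 3.33%. Without centring, the share of higher calls over all regions went from 61.5% to 37.9%, and no region of these genes changed sign.

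The Gfra1 intron region 194 kb from the start, at 12 ± 1.88 in PS KO and 4.71 ± 0.535 in RS KO (SD, n = 2 each), fell by 1.15 in log2 units (SE 0.198; adjusted p = 0.00884 in limma). The Zbtb16 intron region 99.1 kb inside the gene fell by 1.14, from 11.5 ± 1.12 to 4.63 ± 1.19 (SE 0.199, limma adjusted p = 0.00935). The Etv5 promoter fell by 0.83, from 23.1 ± 0.237 to 11.4 ± 1.58 (SE 0.19, limma adjusted p = 0.017). A merged region that holds the Id4 promoter fell by 0.87, from 16.7 ± 4.24 to 7.89 ± 0.453 (SE 0.219, limma adjusted p = 0.0238). Its values, 13.7 and 19.7 in PS KO and 8.21 and 7.57 in RS KO, all came from lines naming A330033J07Rik with Id4. Peaks named for Id4 alone stood at 6.4 in PS KO replicate 2 and at 6.26 and 6.49 in RS KO, and did not set the values tested. In each of these 4 regions both RS KO libraries lay below both PS KO libraries, but the regions were picked by the test on the same values. That separation is therefore no further support, and its share over all regions was not counted.

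An intergenic region at -81.9 kb from the Foxo1 start (chr3:52185041-52187785) went the other way. Its fold enrichment was 6.86 and 3.2 in PS KO and 12.1 and 9.74 in RS KO, with no peak in the 8 spermatogonial libraries. Its level in RS KO was 1.41 higher in log2 units (SE 0.329; adjusted p = 0.0184 in limma), while the Foxo1 promoter had a log2 change of -0.43 (SE 0.212, limma adjusted p = 0.189). A second upstream region, at -139 kb, had values of 6.1 and 5.86 in PS KO and 7.82 and 5.41 in RS KO, which overlapped. The promoters of Bcl6b (-0.37) and Zbtb16 (-0.29) did not pass, with limma adjusted p-values of 0.206 and 0.357.

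These calls rested on few libraries. Leaving out PS KO replicate 2 left 0 of all 26558 regions past the threshold in limma, with 6923 at an unadjusted p under 0.05, and the log2 changes of the 5 regions then ranged from -1.17 to 0.72. The Etv5 call was lost with any 1 of the 4 libraries left out, and the Id4 call without PS KO replicate 1, PS KO replicate 2 or RS KO replicate 1. The Gfra1 and Zbtb16 intron calls were lost without PS KO replicate 2. With stricter peaks, these 2 regions and the Foxo1 region at -81.9 kb no longer had a peak in every library and could not be tested. The Foxo1 call at -81.9 kb was also lost without PS KO replicate 2 and when uncalled regions entered at the library's lowest value. Over the alternatives that gave a value, the adjusted p from limma ranged from 0.000674 to 0.159 at Gfra1, 0.000852 to 0.159 at Zbtb16, 0.00358 to 0.159 at Etv5, 0.00353 to 0.588 at Id4 and 0.00347 to 0.16 at Foxo1.

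**Figure D4:**
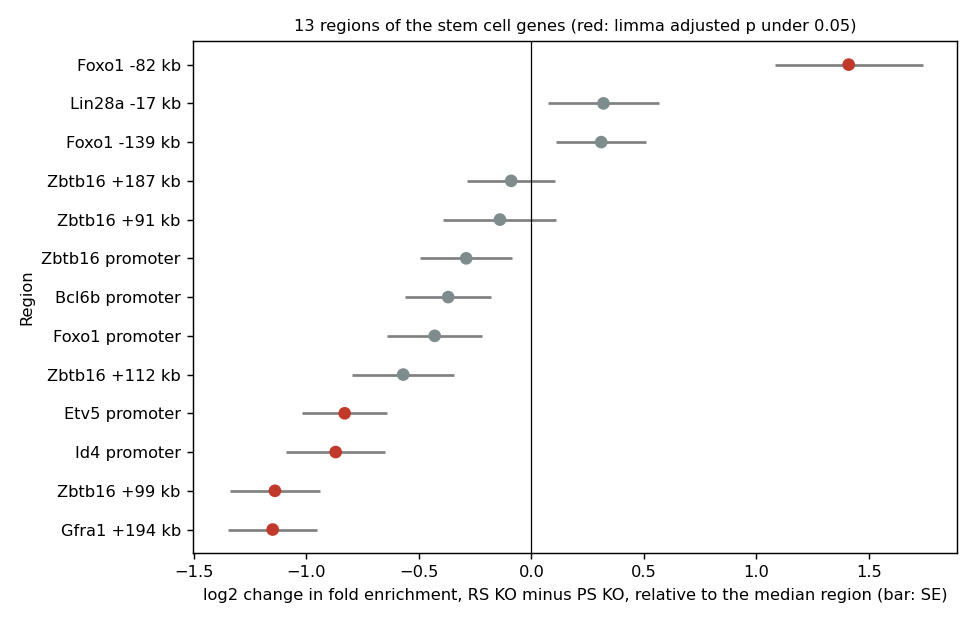
log2 change in fold enrichment from PS KO to RS KO relative to the median region (horizontal axis, bars are SE) for the 13 tested regions, labelled by gene and distance from the start, with limma calls in red. The lowest is the Gfra1 intron at -1.15 and the highest the Foxo1 region at -81.9 kb, with 1.41.

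**Figure D5:**
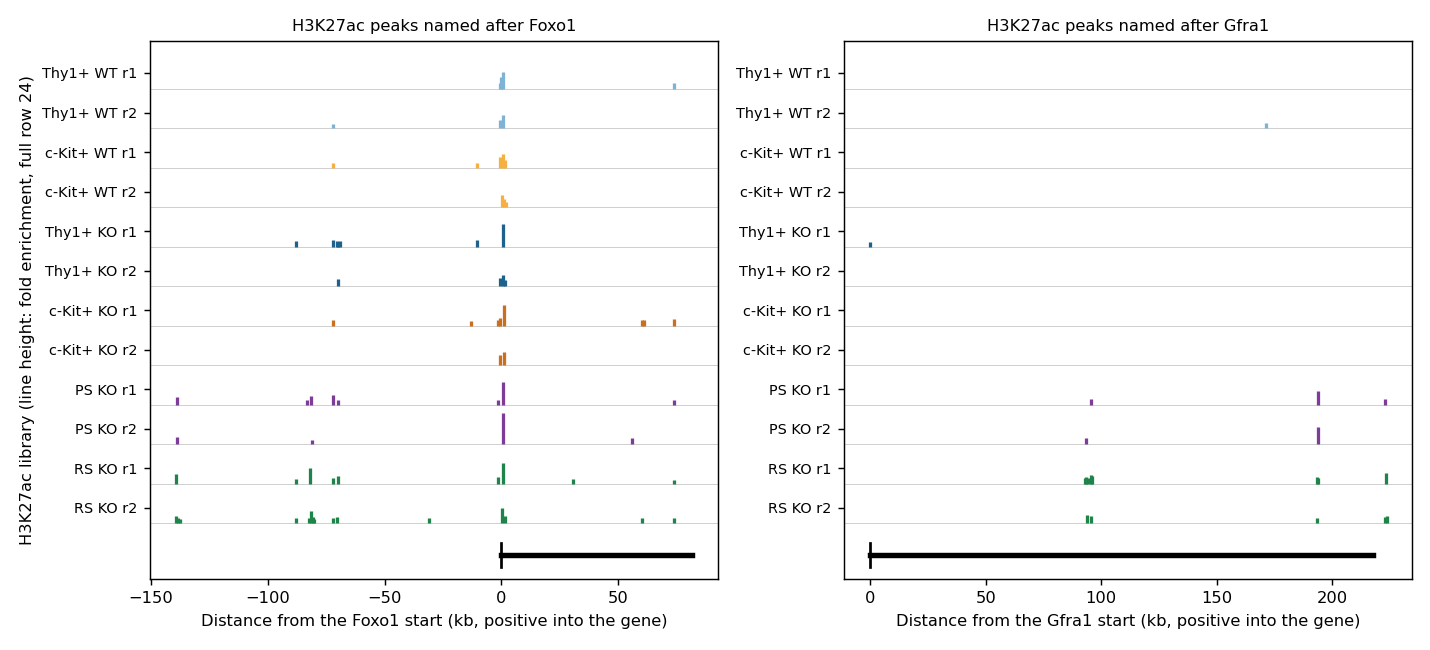
H3K27ac peaks named after Foxo1 (left) and Gfra1 (right) by distance from the start (kb) in each library (rows), where line height is the fold enrichment and a full row is 24. The Foxo1 promoter is present in all 12 rows, while the Gfra1 intron peaks near 194 kb appear in the 4 PS and RS rows.

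Somatic marker promoters moved between PS KO and RS KO as well. Of 6 Sertoli cell markers, 5 and 5 promoters were called in PS KO and 3 and 2 in RS KO, with summed fold enrichments of 49.6 and 66.1 against 17.2 and 10.3, and Wt1 was called in no library. In spermatogonia 1 to 4 of the 6 were called, with sums of 9.59 to 28.5. From PS KO to RS KO, Gata4 fell by 1.06 and Amh by 0.9 (limma adjusted p = 0.0101 and 0.0429). Of 6 Leydig cell markers, 4 and 4 were called in PS KO and 2 and 2 in RS KO, with sums of 32.0 and 36.3 against 10.6 and 12.4, and Cyp17a1 and Hsd3b1 were called in no library. Of 4 macrophage markers with a listed start, 2 and 1 were called in PS KO and 4 and 4 in RS KO. The 1 that could be tested, Cd68, lay in a merged region with a log2 change of -0.19 (limma adjusted p = 0.559). That region stood at 19.4 ± 1.1 in PS KO and 14.9 ± 0.459 in RS KO (SD, n = 2 each). Promoter peaks named for Cd68 reached at most 6.1, so the tested values came from another peak in the region. The change at the Cd68 peaks themselves was not tested. Of 5 peritubular markers, 4 were called in Thy1+ KO replicate 1, with a sum of 31.9, against 0 to 3 in the other spermatogonial libraries. The part of these cells in the results at the stem cell genes was not tested, and in bulk chromatin fewer cells of a type and less acetylation per cell cannot be told apart.

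Other genes of self-renewal were read from a list of 42, and genes of differentiation from a list of 20. In spermatogonia, 12 self-renewal and 7 differentiation promoters could be tested, and 0 passed in limma for genotype, stage or their interaction. At an unadjusted p under 0.05 there were 1, 0 and 2 self-renewal promoters and 0, 0 and 2 differentiation promoters in these 3 tests. The largest genotype differences were at Egr2 (log2 -0.35) and Taf4b (-0.33) in the first list and at Rarg (0.34) and Dnmt3b (0.32) in the second. The largest differences between stages were at Fgf2 (-0.33) and Fgfr1 (-0.23) in the first list and at Dnmt3b (0.29) and Ccnd2 (-0.26) in the second. The largest interactions were at Csf1 (0.9) and Fgf2 (-0.71), and at Dnmt3b (0.71) and Dnmt3a (-0.64). From c-Kit+ KO to PS KO, 8 of 15 self-renewal promoters were lower relative to the median region and 0 higher, with a median log2 change of -0.59, and 2 of 8 differentiation promoters were lower, with a median of -0.01. Over all regions 25.1% were lower and 6.83% higher, with a median of -0.17. Of the 8 self-renewal promoters, 6 (Akt1, Csf1, Id1, Id3, Lyn and Src) had a higher deposited mean in PS KO than in c-Kit+ KO, so their direction depended on the centring. Gdnf, the niche ligand of GFRA1, changed by -1.79, from 7.46 ± 1.48 to 4.57 ± 1.07 (SD, n = 2 each; limma adjusted p = 0.000206). Fgf2, a second niche ligand, changed by -1.23, from 6.23 ± 0.559 to 5.64 ± 1.19 (limma adjusted p = 0.00105). The kinase gene Src changed by -0.79 relative to the median region, with deposited levels of 8.7 ± 2.41 before and 10.4 ± 0.387 after. In the differentiation list, the DNA methyltransferase gene Dnmt3b was called at -1.32 (9.99 ± 2.59 to 8.42 ± 2.11). The cyclin gene Ccnd2 was called at -0.99, with deposited levels of 5.41 ± 1.05 and 5.72 ± 0.544, again higher in PS KO before centring. The deposited levels of Fgf2 and of Dnmt3b overlapped between the groups within their SD. Single calls in both lists were not followed through the alternatives.

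From PS KO to RS KO, 2 of 22 tested self-renewal promoters rose and 1 fell, with a median of -0.10. Lyn, a kinase gene of the Src family, rose by 1.08 (6.94 ± 1.52 to 12.7 ± 1.92; limma adjusted p = 0.013), and the chemokine receptor gene Cxcr4 by 0.85 (5.72 ± 0.544 to 9.05 ± 1.74; limma adjusted p = 0.0427). The integrin gene Itga6, used as a surface marker of stem cells, fell by 0.8 (10.1 ± 2.36 to 4.98 ± 0.153; limma adjusted p = 0.0306). Of 10 tested differentiation promoters 2 fell: Prdm9, which marks recombination sites, by 0.73, and Kit, the receptor gene that names the c-Kit+ cells, by 0.81 (limma adjusted p = 0.0313 and 0.0492). These are shares of small lists beside 12.4% of regions higher and 7.79% lower over all, and the single calls were not followed through the alternatives.

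The promoter profiles most like each gene were found by the root mean square distance of log2 fold enrichment over the 12 libraries, an uncalled library set to its lowest value, among 13602 other genes. Etv5 was closest to Triqk and Zfp703 (0.17 and 0.18), and Foxo1 to Reps1 and AA474331 (0.15 and 0.17). Bcl6b was closest to Wdr31 and Pkdrej (0.14 and 0.17), and Zbtb16 to Gnaz and BC030867 (0.24 and 0.25). Id4 was closest to Slc16a12 and Gm13031 (0.17 and 0.20), and Sall4 to Unc5d and Chic1 (0.10 and 0.11). The distances of Id4, Sall4, Bcl6b and Zbtb16 rest on 4, 5, 6 and 8 called libraries, since the other values were set at the library's lowest. The Id4 profile left out the lines that also named A330033J07Rik. It thus stood at the lowest value in PS KO replicate 1 and at 6.4 in PS KO replicate 2, where such lines covered the start at 13.7 and 19.7. The likeness of Id4 therefore describes only the peaks named for Id4 alone.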

How the data were processed

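H3K27ac ChIPmentation (chromatin immunoprecipitation with transposase-inserted adapters) and input libraries of mouse germ cells were read from peak tables, 1 for each library. Bowtie, MACS2 and the build mm10 are named in the submitters' processing notes; their versions and settings are not given in the sources used here. Per the file headers, each deposited line gave a peak, its signal height at the summit, a fold enrichment (a ratio, equal to the height plus 1 over a library-wide background plus 1), a −log10 p-value, a −log10 q-value and the nearest transcript. The files give no counts, so the read depth is unknown and no interval that needs counts was computed.

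Peaks overlapping by at least 1 bp were merged into regions, and the tallest fold enrichment there stood for a library. Only regions called throughout a comparison entered its test, as log2 values centred on each library's median, with limma 3.58.1 (R 4.3.3), and p-values were adjusted by the Benjamini-Hochberg method over all regions. The test was checked on simulated data with 200 changed regions. At a log2 change of 1, between 84.5% and 100% were recovered, except for the interaction (18.5%). The simulated noise was independent in each library, with no effect of depth or scaling and no loss of weak peaks. These shares may therefore overstate recovery in the real libraries. Promoter counts and lengths are descriptions, made with Python 3.11.15, numpy 2.4.6 and pandas 2.3.3. Groups and replicate numbers came from the sample titles. The genes and lists were chosen with earlier results of these data known. All 10 genes are named; of the other lists, the 3 called genes of smallest adjusted p in each comparison or, where none was called, the 2 of largest change are named. Likeness is given for genes with a promoter peak in at least 4 libraries, with the 2 nearest genes. Alternatives covered stricter peaks (−log10 q of at least 5), equal peak numbers, an overlap of 50%, scaling, uncalled libraries at their lowest value, a replicate block, promoter windows of 500 bp and 2 kb and leaving out each library. Mitochondrial peaks were left out.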

Additional observations from a re-analysis of the deposited data

Results flagged for a closer look

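The inputs, which entered no comparison, held a single peak named after any of the 10 genes. It lay in a Gfra1 intron in the input of RS WT replicate 2, at chr19:58318466-58318654, with a fold enrichment of 6.6. In the other 15 inputs no such peak was called, so they give no level to set beside it. No H3K27ac library had a Gfra1 peak at that place.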

How the results depend on the processing

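Read depth is unknown and limits which peaks could be called, so a promoter without a peak is not shown to lack acetylation. In limma, the counts of 0 regions for genotype and for the interaction held in all 15 alternatives, with 321 to 766 and 282 to 755 regions at an unadjusted p under 0.05. With stricter peaks, called regions numbered 18 for c-Kit+ against Thy1+ cells (104 as reported), 2013 for PS against c-Kit+ cells (3992) and 1982 for RS against PS (4309), with 2 regions of the stem cell genes (5). Without centring they numbered 0 (932 at an unadjusted p under 0.05), 8940 (2 of the stem cell genes) and 5850, and quantile normalization gave 784 for PS against c-Kit+ cells. With uncalled regions at the lowest value, they numbered 805 for c-Kit+ against Thy1+ cells and 7022 for RS against PS, with 2 regions of the stem cell genes in PS against c-Kit+ cells and 8 in RS against PS. Replicate numbers were not taken to pair the libraries, since correlations of deviations were 0.000391 to 0.159, although replicate 1 had more peaks in all 6 H3K27ac groups; the replicate block gave 206 calls for c-Kit+ against Thy1+ cells and changed no call at the stem cell genes. Leaving out 1 library gave 9 (without Thy1+ WT replicate 1) to 178 (without Thy1+ WT replicate 2) calls for c-Kit+ against Thy1+ cells, with counts of 28 to 46 without c-Kit+ WT replicate 2, Thy1+ KO replicate 1 or either c-Kit+ KO library. It gave 0 (without c-Kit+ KO replicate 2; 5751 at an unadjusted p under 0.05) to 4564 for PS against c-Kit+ cells, with 2583 without PS KO replicate 2, and 0 (without PS KO replicate 2) to 3402 for RS against PS, with 2816 without RS KO replicate 1. For the stem cell genes, RS against PS then gave 0 to 4 regions, with 3 without PS KO replicate 1 or RS KO replicate 1. Peaks of the stem cell genes per library with stricter peaks averaged 4.0 in Thy1+ WT, 4.5 in c-Kit+ WT, 9.0 in Thy1+ KO, 4.0 in c-Kit+ KO, 20.0 in PS KO and 18.0 in RS KO. With equal peak numbers they averaged 8.0 in Thy1+ WT, 5.5 in c-Kit+ WT, 9.5 in Thy1+ KO, 5.5 in c-Kit+ KO, 9.0 in PS KO (16.5 kb) and 7.5 in RS KO (12.9 kb). Without Thy1+ KO replicate 1, chosen after seeing the data, 21 regions were called in spermatogonia. Signs turned at Foxo1 for genotype (-0.04) with stricter peaks (0.01), quantile normalization (0.0), no centring (0.23) and on leaving out 1 library (-0.17 to 0.06), and at Etv5 with no centring (0.03). The Foxo1 sign also turned with no centring for c-Kit+ against Thy1+ cells (-0.08) and for PS against c-Kit+ cells (0.7). For RS against PS, the sign turned with stricter peaks at the Zbtb16 region 91.5 kb inside the gene (0.02). Leaving out 1 library turned it there (-0.48 to 0.06), at Id4 (-0.98 to 0.18), at the Lin28a region at -17.2 kb (-0.13 to 0.62) and at the Zbtb16 region 187 kb from the start (-0.24 to 0.02). At Id4 the region splits without PS KO replicate 1, and the value is that of its upstream piece. The cause of the other changes was not tested.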
